A study of Arabidopsis thaliana with 72 samples.

Results

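The genes described here are 6 class III peroxidases of Arabidopsis thaliana that are known mainly from roots, AT4G26010, AT5G17820, AT4G30170, AT3G01190, AT1G30870 and AT3G49960, followed in aerial tissue of seedlings. They are 6 of the 22746 probe sets on the ATH1 array that are not controls, and 6 of the 55 class III peroxidases, from a list of 73, that could be matched to a probe set. They were chosen by their mean signal, which was low under nicotinamide and in toc1-1 and high in untreated seedlings, so the mean levels below are a description with no test. Their rhythm over the day, and the change between the first and the second day, were not used to choose them and were tested. A low level limits the amplitude that can be seen, so rhythm results under nicotinamide and in toc1-1 are not free of that choice.

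Class III peroxidases are secreted haem enzymes that use hydrogen peroxide to oxidise phenolic compounds and structural proteins of the cell wall. They can stiffen a wall by cross-linking its polymers, or loosen it by forming reactive oxygen species. Plants hold a large family of them, and many members are best known from roots, root hairs included. The transcription factor UPB1 (AT2G47270) is known to repress several peroxidase genes in the Arabidopsis root.

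RNA came from aerial tissue under 3 conditions, each followed in 2 replicates sampled at 12 times, 4 h apart, between 49 and 93 h. The conditions were C24 wild type treated with nicotinamide, the clock mutant toc1-1 (made by chemical mutagenesis, parent ecotype not given in its labels), and untreated C24 wild type. Nicotinamide inhibits ADP-ribosyl cyclase, an enzyme needed for the daily rise and fall of calcium in the cytosol. Its dose is not given in the labels. The growth protocol given for every sample is 11 days of 12 h light and 12 h dark at 19 °C, followed by continuous light. A closing note in the labels differs, however: it names days and nights for replicate 1 of nicotinamide and of untreated seedlings, and constant light for the other 4 time courses. Untreated replicate 1 also carries developmental stage 1.03, against 1.04 for all other samples. Whether growth or light differed is not stated. Both toc1-1 courses carry the constant light note, so their comparison with untreated replicate 1 crosses these notes. The labels do not say from which moment the hours are counted, so times are read against each other only. They give 150 to 200 seeds per plate for toc1-1 and 70 to 100 for C24, so plating density and genotype cannot be told apart.

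Each of the 72 arrays was scaled by the authors to a common mean of 100 signal units. The median signal of an array ran from 18.9 to 31.1 under nicotinamide, from 33.5 to 37.3 in toc1-1 and from 32.5 to 38.1 in untreated seedlings. The nicotinamide arrays thus lay below all others, and the median of all mean changes under nicotinamide was -0.12 on the log2 scale (0.004 after quantile normalization). An array is a mean over all cells of the tissue, so fewer cells of a type and less RNA per cell cannot be told apart. Whether the replicates came from separate seedling batches is not stated, so every p value reflects only the variation among these arrays, which may be technical.

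One untreated array, replicate 1 at 93 h, stood apart for all of these genes. Its 6 signals summed to 4.11, against 277 to 1162 on the other 23 untreated arrays, while its correlation with the other array of that time was 0.982, within the range of the untreated pairs. PYK10 (AT3G09260), a beta-glucosidase abundant in roots and lower hypocotyls, had its lowest untreated signal on it as well, 1328 against at least 2775 elsewhere. In toc1-1 the array of 61 h in replicate 1 was the highest for every one of the 6 genes. The rhythm calls in untreated seedlings and in toc1-1 are given with and without the array of that condition. Other fitted values, those of AT5G64100 and UPB1 included, hold these arrays unless stated.

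AT4G26010 had the widest separation between conditions. Its signal ran from 0.230 to 13.8 with a median of 0.766 under nicotinamide, from 0.350 to 128 with a median of 10.2 in toc1-1, and from 0.381 to 378 with a median of 185 in untreated seedlings. Apart from the array of 93 h in replicate 1, every untreated array was at 75.4 or higher. No nicotinamide array and 1 of 24 toc1-1 arrays reached that level.

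AT5G17820 averaged 13.0 ± 10.00 signal units under nicotinamide, 25.0 ± 24.7 in toc1-1 and 140 ± 72.0 in untreated seedlings (SD, n = 24 arrays each). AT4G30170 averaged 12.8 ± 8.57 under nicotinamide, 30.3 ± 26.3 in toc1-1 and 136 ± 73.8 in untreated seedlings (SD, n = 24 arrays each). With the low untreated array set aside, no nicotinamide array and 4 of 24 toc1-1 arrays of either gene exceeded the lowest untreated signal, 45.1 for AT5G17820 and 52.9 for AT4G30170. With that array kept, 24 of 24 nicotinamide arrays and 24 of 24 toc1-1 arrays exceeded the lowest untreated signal of either gene. These counts describe the level for which the genes were picked.

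AT3G01190 stood out from the others in its order of conditions. It averaged 14.6 ± 11.2 signal units under nicotinamide, 10.0 ± 11.9 in toc1-1 and 55.5 ± 32.5 in untreated seedlings (SD, n = 24 arrays each), so its lowest mean was in toc1-1. The other 5 had their lowest mean under nicotinamide. Its groups also overlapped most, with 7 of 24 nicotinamide arrays and 4 of 24 toc1-1 arrays above 19.2, the lowest untreated signal apart from the low array.

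AT1G30870 and AT3G49960 were dim on most arrays outside the untreated seedlings. AT1G30870 ran from 0.389 to 11.8 under nicotinamide (median 1.63), from 0.519 to 48.4 in toc1-1 (median 4.52) and from 1.19 to 131 in untreated seedlings (median 65.2). AT3G49960 stayed between 0.262 and 1.11 on all 24 nicotinamide arrays (median 0.331) and ran from 0.399 to 29.8 in toc1-1 (median 0.861), against 0.770 to 93.5 in untreated seedlings (median 42.4). Both fell below the filter that kept the upper 60% of probe sets by mean value over all arrays, so 4 of the 6 genes were tested among 13647 probe sets. Their fitted values come from a fit to all 22746 probe sets.

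**Figure D1:**
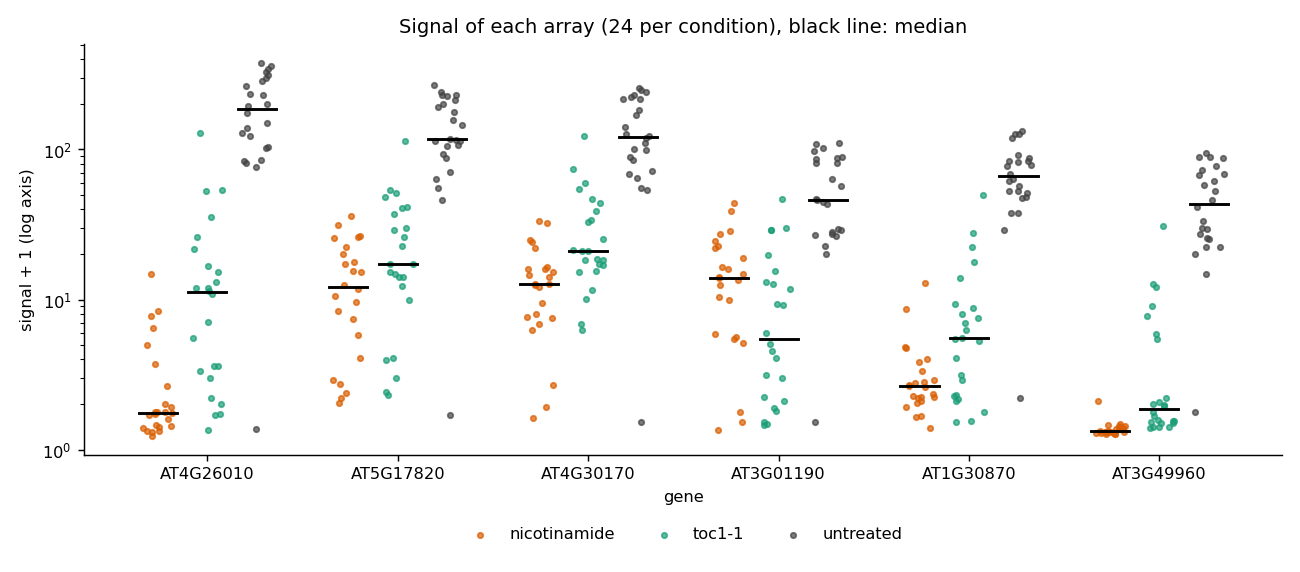
Signal plus 1, on a log axis, of each of the 24 arrays of nicotinamide, toc1-1 and untreated seedlings for the 6 genes, with the median as a black line. The untreated points lie above most points of both other conditions, except for 1 untreated array that is near the bottom for every gene (signal 0.381 for AT4G26010).

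On the scale log2(signal + 16), whose lowest possible value is 4, AT4G26010 averaged 4.16 under nicotinamide, 4.80 in toc1-1 and 7.46 in untreated seedlings. Its mean change was -3.30 ± 0.15 (SE) under nicotinamide and -2.67 ± 0.15 in toc1-1, each against the same untreated arrays. AT5G17820 changed by -2.30 ± 0.13 under nicotinamide and -1.91 ± 0.13 in toc1-1, and AT4G30170 by -2.25 ± 0.13 and -1.67 ± 0.13 in that order of conditions. AT3G01190 changed by -1.15 ± 0.12 under nicotinamide and -1.41 ± 0.12 in toc1-1. In the fit without the filter AT1G30870 changed by -2.11 ± 0.11 under nicotinamide and -1.81 ± 0.11 in toc1-1, and AT3G49960 by -1.80 ± 0.10 under nicotinamide and -1.59 ± 0.10 in toc1-1.

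Because the added 16 exceeds most nicotinamide signals, these changes understate how far the transcripts lay below untreated levels. All 4 tested genes were past the limma threshold in both contrasts, which is the basis on which they were picked and is read for nothing here. Of all probe sets tested, 48.4% were lower and 30.9% higher under nicotinamide, and 19.6% were lower and 22.1% higher in toc1-1.

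In untreated seedlings the 6 genes went up and down together over both days, and this daily pattern was tested in each condition with a 24 h cosine. Rhythm was called by limma's moderated F test (adjusted p under 0.05) in 0 of 4 tested genes under nicotinamide, where 32.0% of all probe sets were called. It was called in 3 of 4 in toc1-1, where the background was 8.54%, and in 4 of 4 in untreated seedlings, where it was 22.9%. The background probe sets were not picked for low signals under nicotinamide and in toc1-1, as the 4 genes were. The filter used the mean over all arrays, and high untreated values entered that mean. On the log2 scale the 4 genes averaged 4.16 to 4.85 under nicotinamide and 6.00 to 7.46 in untreated seedlings. The count of 0 of 4 beside 32.0% therefore cannot show a loss of rhythm. The plot of signals by time shows the courses of the 6 genes for each replicate.

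**Figure D2:**
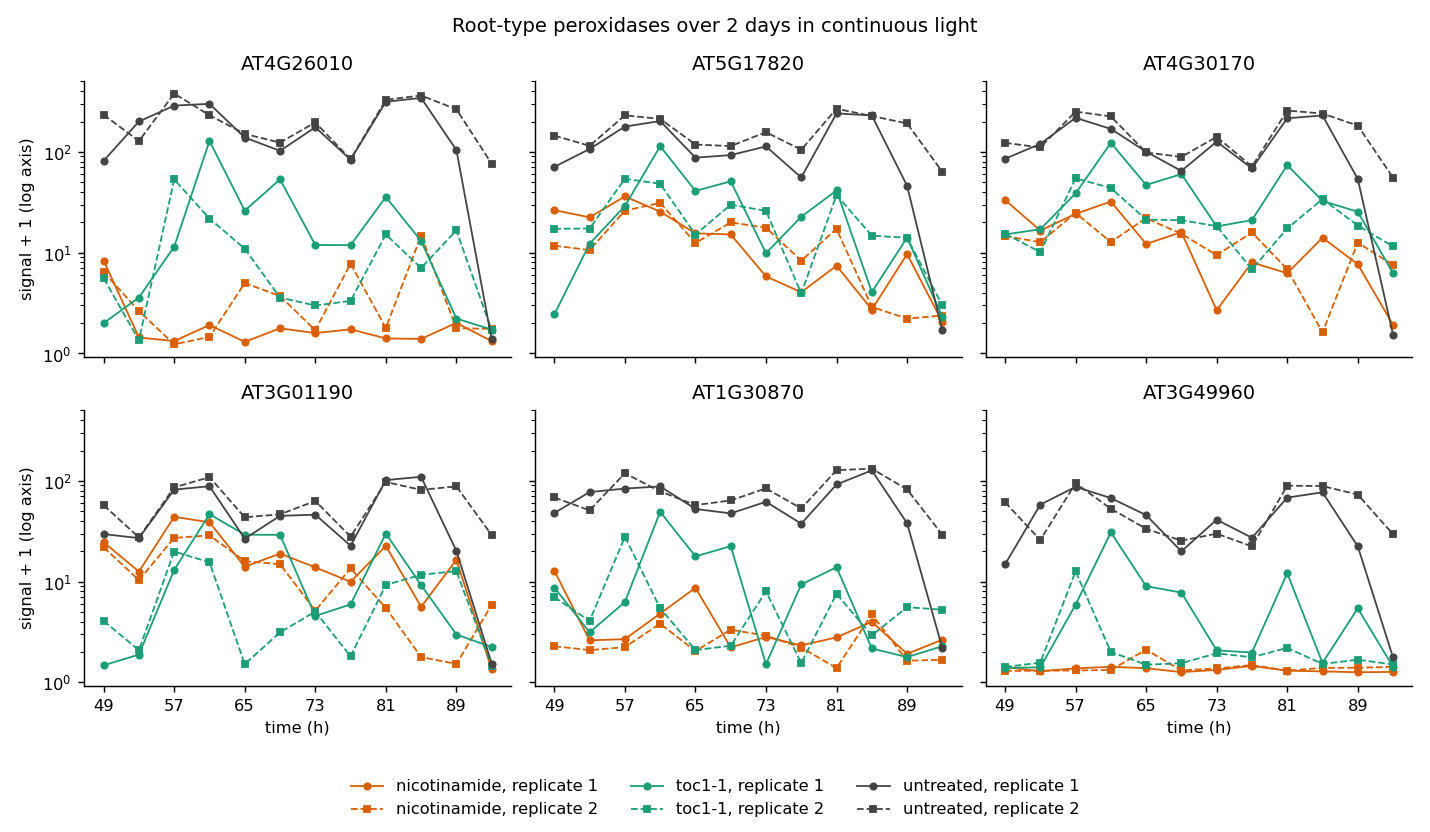
Signal plus 1, on a log axis, against time in hours for the 6 genes, with solid lines for replicate 1 and broken lines for replicate 2 of nicotinamide, toc1-1 and untreated seedlings. Both untreated courses are highest at 57 or 61 h and again at 81 or 85 h in every panel, and the untreated course of replicate 1 drops at 93 h.

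The untreated maxima fell at the same hours in every gene. In each of the 24 combinations of gene, replicate and day, the highest untreated signal was at 57 or 61 h on the first day, or at 81 or 85 h on the second. The same hours held the maximum in 12 of 24 combinations under nicotinamide and in 21 of 24 in toc1-1. The genes share arrays, so the combinations are not independent. Some nicotinamide maxima were at the bottom of the scale, as for AT3G49960, whose highest signal there was 1.11. For AT4G26010 the 2 untreated replicates reached 299 and 378 on the first day, and 342 and 362 on the second.

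The untreated amplitude, which is the distance from the mean to the peak on the log2 scale, was 0.91 ± 0.15 (SE) for AT4G26010, with the peak at 10.5 h (modulo 24) and limma's adjusted p of 3.69e-05. AT5G17820 had an amplitude of 0.80 ± 0.13 and a peak at 10.3 h (adjusted p = 3.44e-05, limma). AT4G30170 had 0.87 ± 0.13 and a peak at 10.2 h (adjusted p = 3.75e-06, limma). AT3G01190 had the latest fitted peak of the 6, at 11.2 h, with an amplitude of 0.64 ± 0.12 (adjusted p = 0.000214, limma). The median untreated amplitude of all probe sets tested was 0.12.

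AT1G30870 and AT3G49960 had the same pattern in the fit without the filter. AT1G30870 had an untreated amplitude of 0.60 ± 0.11 and peaked at 10.2 h (adjusted p = 0.000218, limma), and AT3G49960 had 0.71 ± 0.10 and peaked at 10.7 h (adjusted p = 3.48e-06, limma). For comparison, GI (AT1G22770), a clock gene of the evening, peaked at 10.6 h in the same untreated arrays. The peroxidases and GI thus peaked within about the 4 h step between times.

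Leaving out the low untreated array lowered the amplitudes but kept the calls. Without it the amplitudes were 0.73 for AT4G26010, 0.62 for AT5G17820, 0.71 for AT4G30170 and 0.55 for AT3G01190. All 4 of 4 were called, with adjusted p between 5.33e-05 and 0.0017 (limma). In the fit without the filter, AT1G30870 then had 0.49 (adjusted p = 0.00331, limma) and AT3G49960 had 0.60 (adjusted p = 4.08e-05, limma). The replicates differed in strength. Taken alone, the amplitudes of the 6 genes ran from 0.74 to 1.23 in untreated replicate 1 and from 0.46 to 0.69 in replicate 2, with peaks from 9.59 to 10.4 h and from 10.7 to 12.6 h. Without untreated replicate 1, 2 of 4 were called. Replicate 1 is the course of stage 1.03 noted as days and nights, and replicate 2 is of stage 1.04 and noted as constant light, so replicate and label cannot be told apart. Between courses of the same light note, the amplitudes of the 6 genes were 0.003 to 0.30 under nicotinamide and 0.74 to 1.23 in untreated seedlings in replicate 1, and 0.01 to 0.22 under nicotinamide and 0.46 to 0.69 in untreated seedlings in replicate 2. At a pseudocount of 1 in place of 16, 3 of 4 were called and AT3G01190 was not (adjusted p = 0.0535, limma).

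Under nicotinamide no amplitude of the 4 tested genes exceeded 0.21, and their adjusted p lay between 0.34 and 0.991 (limma). The smallest amplitudes belonged to AT4G26010 with 0.02 ± 0.15 and, in the fit without the filter, to AT3G49960 with 0.004 ± 0.10 and AT1G30870 with 0.03 ± 0.11. All 3 lay near the lower limit of the scale, where an amplitude is compressed. AT5G17820 and AT3G01190 kept signals up to 35.1 and 43.0 and had amplitudes of 0.19 ± 0.13 and 0.21 ± 0.12.

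The rhythm itself differed between nicotinamide and untreated seedlings in 3 of 4 tested genes, against 25.9% of all probe sets. The 4 genes had been picked for low signals under nicotinamide, which compress an amplitude, so these shares are not a like comparison. The adjusted p of this difference was 0.00338 for AT4G26010, 0.0262 for AT5G17820 and 0.00306 for AT4G30170, and it was 0.0726 for AT3G01190 (limma). AT5G17820 no longer passed without the low untreated array (adjusted p = 0.0697, limma). With a pseudocount of 1 in place of 16, which stretches low signals, 0 of 4 passed, and 0 of 4 passed without untreated replicate 1. With either nicotinamide replicate left out, 1 of 4 passed.

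In toc1-1 3 of the 4 tested genes were called rhythmic on a lower level, with fitted amplitudes below the untreated ones on this scale. AT4G30170 had an amplitude of 0.57 ± 0.13 with a peak at 12.7 h (adjusted p = 0.00739, limma), AT4G26010 had 0.57 ± 0.15 with a peak at 12.5 h (adjusted p = 0.0347, limma), and AT3G01190 had 0.45 ± 0.12 with a peak at 12.8 h (adjusted p = 0.0341, limma). AT5G17820 did not pass, with 0.46 ± 0.13 and a peak at 11.7 h (adjusted p = 0.0536, limma). These calls moved with the setting and with single arrays. Leaving out 1 toc1-1 array could end the call, for 1 array in AT4G30170, 12 in AT3G01190 and 14 in AT4G26010. All 4 genes passed without the low untreated array (adjusted p from 0.00153 to 0.0211, limma). They also all passed with the period of each condition (adjusted p from 0.00318 to 0.0156, limma), a linear trend, or time course as a random block. Without the toc1-1 array of 61 h in replicate 1 none of the 4 passed (adjusted p from 0.0659 to 0.256, limma), and without either toc1-1 time course none passed. With any one of 7 other toc1-1 arrays left out (49 and 81 h in replicate 1, and 57, 69, 85, 89 and 93 h in replicate 2) 1 of 4 passed. In the fit without the filter, 1 of 6 passed. At a pseudocount of 1, 2 of 4 passed, AT4G26010 and AT3G01190. Their amplitudes were then the higher ones in toc1-1, at 1.42 in toc1-1 and 1.23 in untreated seedlings for AT4G26010 and at 1.33 in toc1-1 and 0.99 in untreated seedlings for AT3G01190. A smaller amplitude in toc1-1 is therefore not shown.

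The peaks in toc1-1 were later than in untreated seedlings for all 6 genes in the cosine fitted to both replicates. GI, in contrast, peaked at 6.47 h in toc1-1 and 10.6 h in untreated seedlings. Taken alone, the toc1-1 peaks of the 6 genes ran from 12.6 to 13.8 h in replicate 1 and from 8.12 to 12.9 h in replicate 2. In toc1-1 replicate 2, AT1G30870 (8.12 h) and AT3G49960 (9.00 h) peaked earlier than in either untreated replicate. The difference of rhythm between toc1-1 and untreated seedlings passed in 0 of 4 tested genes (limma, adjusted p from 0.143 to 0.71), where 7.20% of all probe sets passed. Only AT4G30170 had an unadjusted p under 0.05, 0.0155. A shift of the peaks is therefore not shown. With a pseudocount of 64, 3 of 4 passed, and 1 or 2 passed without any one of 3 single arrays (toc1-1 at 81 h in replicate 1, untreated at 89 h and at 93 h in replicate 2). A single period fitted jointly to 3 clock-regulated genes (GI, COR27 and COR28) came to 21.6 h in toc1-1 and 23.7 h in untreated seedlings, whereas the peaks above use a cosine of 24 h.

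**Figure D3:**
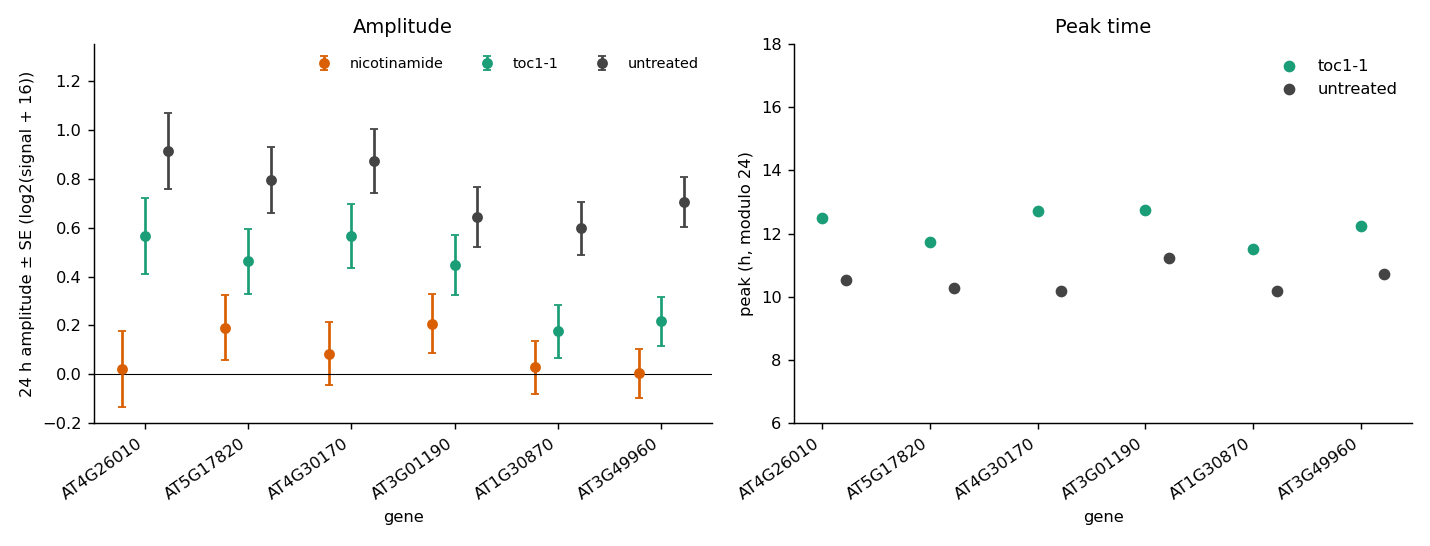
Left, 24 h amplitude with its SE on the log2(signal + 16) scale for the 6 genes under nicotinamide, in toc1-1 and in untreated seedlings. Right, the peak time in hours modulo 24 for toc1-1 and untreated seedlings. Values are from the fit without the filter, and the untreated amplitudes (0.60 to 0.91) are the highest for every gene on this scale. At a pseudocount of 1 the toc1-1 amplitude exceeds the untreated one for AT4G26010 and AT3G01190.

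Levels also moved between the first day (49 to 69 h) and the second (73 to 93 h), which cover the same 6 hours of the day. Under nicotinamide AT5G17820 averaged 20.1 ± 8.21 signal units on the first day and 5.88 ± 5.58 on the second (SD, n = 12 arrays each). AT4G30170 averaged 18.7 ± 7.48 on the first day and 6.88 ± 4.59 on the second, and AT3G01190 averaged 21.7 ± 10.5 and 7.61 ± 6.74 in that order (SD, n = 12 arrays each). Their second-day levels were lower by limma, at -0.73 ± 0.19 (SE, log2, adjusted p = 0.0156), -0.60 ± 0.18 (adjusted p = 0.037) and -0.68 ± 0.17 (adjusted p = 0.0139). AT4G26010 was at the bottom of its range on both days, with 2.05 and 2.25 signal units.

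Thus 3 of 4 tested genes fell between the days under nicotinamide, against 4.39% of all probe sets. The call of AT4G30170 was lost without any one of 13 single nicotinamide arrays, without either toc1-1 time course (adjusted p = 0.0588 and 0.0589, limma) and without the filter (adjusted p = 0.0577, limma). In toc1-1 1 of 4 fell, AT5G17820 with -0.63 ± 0.19 (log2, adjusted p = 0.037, limma), against 2.52%. That call was lost without any one of 14 single toc1-1 arrays, and without either toc1-1 time course. In untreated seedlings 0 of 4 changed (limma, adjusted p from 0.811 to 0.955, 0 with an unadjusted p under 0.05), against 0.0220% of all probe sets that fell. A direct test of whether the change under nicotinamide differed from the untreated one passed in 0 of 4, against 1.03% of all probe sets. Its unadjusted p was under 0.05 for AT3G01190 alone, at 0.0178 (adjusted p = 0.164, limma). The fall between days is therefore not shown to be particular to nicotinamide. Without nicotinamide replicate 1, 0 of 4 passed, and without the 3 nicotinamide arrays whose titles end in 2, 1 of 4 passed.

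The 6 genes followed each other closely from array to array in untreated seedlings, where the 15 pairwise correlations of log2 values over 24 arrays ran from 0.84 to 0.97. Without the low array the lowest was 0.77. In toc1-1 they ran from 0.76 to 0.92, and under nicotinamide, where several genes lay near the bottom of the scale, from -0.13 to 0.76. The points share arrays and hours of the day. The differences between the 2 untreated replicates at each time still correlated at 0.70 to 0.93 over 12 times (0.58 to 0.94 without 93 h). They remove only the daily course that both replicates share. The replicates differed in amplitude and peak for all 6 genes, so a daily part can remain in these differences.

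The genes most like the mean profile of the 6 over the 24 untreated arrays were AT5G64100, AT1G18980, AT1G22440, AT5G05960 and AT2G18980, with Pearson correlations from 0.96 to 0.98. Without the low array of 93 h, AT5G64100, AT1G18980 and AT2G18980 stayed among the first 5, and UGT72E2 (AT5G66690) and AT3G19390 took the places of AT1G22440 and AT5G05960, with correlations from 0.95 to 0.97. AT5G64100 and AT2G18980 are themselves class III peroxidases. AT5G64100 matched the untreated course best (0.98), with an amplitude of 0.91 and a peak at 10.5 h. Over all 72 arrays the most similar were HRGP1 (AT3G54590), a hydroxyproline-rich glycoprotein, AT2G25980, AT2G18980, AT3G29410 and AT3G25930, with correlations from 0.90 to 0.95. AT5G64100 was not among these 5. All genes named for their likeness were matched to a locus and passed the filter, so dimmer or unmatched probe sets are not described.

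AT5G64100 shared the untreated rhythm of the 6 genes but not their level under nicotinamide. Its signal ran from 155 to 1389 with a median of 425 under nicotinamide, from 27.9 to 334 with a median of 79.2 in toc1-1, and from 5.07 to 374 with a median of 144 in untreated seedlings. The groups overlapped, and the nicotinamide arrays were the highest as a group. The mean change was 1.43 ± 0.12 (SE, log2) under nicotinamide (adjusted p = 5.27e-14, limma) and -0.62 ± 0.12 in toc1-1 (adjusted p = 0.000108, limma). It was also still rhythmic under nicotinamide, with an amplitude of 0.49 (adjusted p = 0.0088, limma), where none of the 4 tested genes was called; the difference between genes was not tested.

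AT2G18980, by contrast, had its conditions in the same order as 5 of the 6 genes. It averaged 12.1 ± 4.82 signal units under nicotinamide, 30.5 ± 12.1 in toc1-1 and 70.5 ± 30.5 in untreated seedlings (SD, n = 24 arrays each). A further peroxidase too dim to be tested, AT1G34510, averaged 0.538 under nicotinamide, 2.48 in toc1-1 and 56.5 in untreated seedlings, and was singled out after its values were seen. In the fit without the filter AT1G34510 changed by -1.97 (log2) under nicotinamide and -1.85 in toc1-1.

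**Figure D4:**
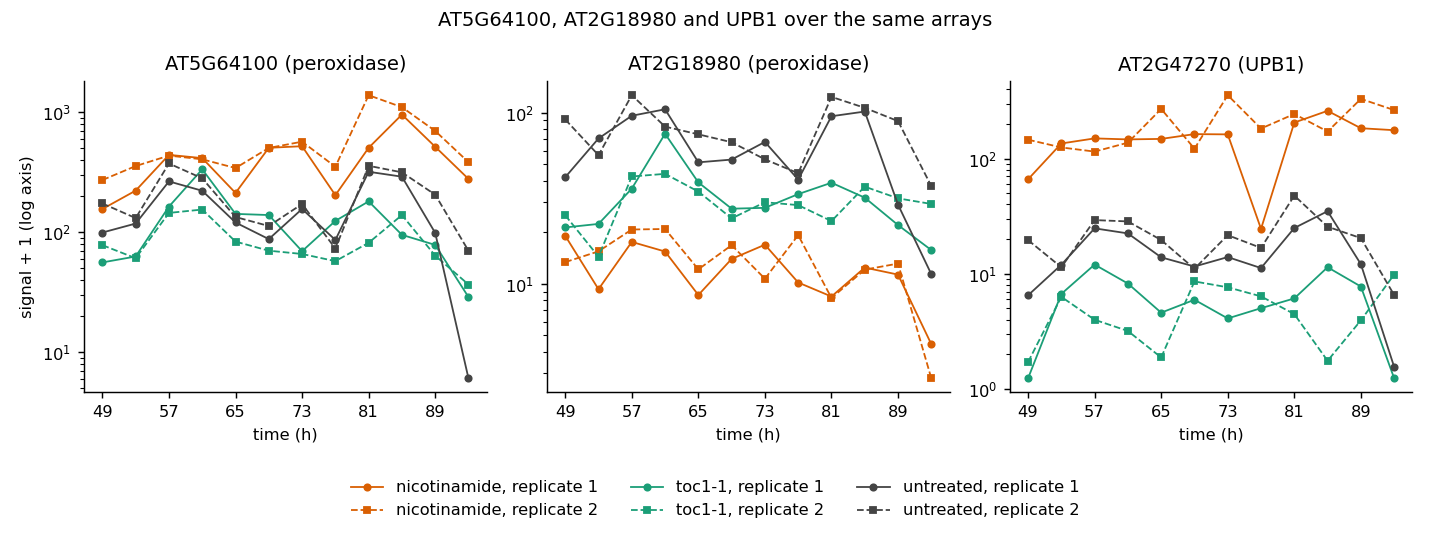
Signal plus 1, on log axes that differ between panels, against time in hours for the peroxidases AT5G64100 and AT2G18980 and for UPB1 (AT2G47270), with both replicates of nicotinamide, toc1-1 and untreated seedlings. AT5G64100 and UPB1 are highest under nicotinamide (means 489 and 178), and AT2G18980 is lowest there (mean 12.1).

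The rest of the peroxidase family moved in both directions. Of 49 other class III peroxidases that could be matched, 24 passed the filter. Under nicotinamide 12 of these rose, 10 fell and 2 did not pass, with a median change of 0.09 beside -0.12 for all probe sets. Of all probe sets 30.9% rose and 48.4% fell there. In toc1-1 4 rose, 13 fell and 7 did not pass, with a median of -0.24 beside 0.02. Of all probe sets 22.1% rose and 19.6% fell in toc1-1. Rhythm was called in 11 of the 24 (45.8%) under nicotinamide, 7 (29.2%) in toc1-1 and 13 (54.2%) in untreated seedlings. The shares over all probe sets were 32.0%, 8.54% and 22.9% in that order.

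The highest changes of the others under nicotinamide were those of PRX71 (AT5G64120), at 3.71 ± 0.11 (SE, log2), with a mean of 3371 signal units there and 251 in untreated seedlings, AT5G39580 at 3.12 ± 0.13, and AT4G33420 at 2.00 ± 0.06. The lowest of the tested others were PRXR1 (AT4G21960) at -1.81 ± 0.07, AT2G18980 at -1.54 ± 0.08 and AT5G51890 at -1.33 ± 0.08. PRXR1 averaged 1411 signal units under nicotinamide and 4858 in untreated seedlings. All 6 passed limma with an adjusted p of 7.51e-20 or less.

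In toc1-1 the highest changes were those of PRX71 at 0.67 ± 0.11, Prx37 (AT4G08770) at 0.52 ± 0.12 and AT5G39580 at 0.40 ± 0.13. The lowest of the tested others were AT2G18980 at -0.83 ± 0.08, AT4G11290 at -0.62 ± 0.07 and AT5G64100 at -0.62 ± 0.12. Every one of these was smaller in size than the change of any of the 4 tested root-type genes, which had been picked for it. The untested AT1G34510 was not smaller than all 4. Without the filter it changed by -1.85 in toc1-1, beside -1.67 for AT4G30170 and -1.41 for AT3G01190. PRXR1 was at 5017 signal units in toc1-1 and 4858 in untreated seedlings, so the peroxidase that fell under nicotinamide had a change of 0.05 ± 0.07 in toc1-1 and did not pass (adjusted p = 0.543, limma).

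**Figure D5:**
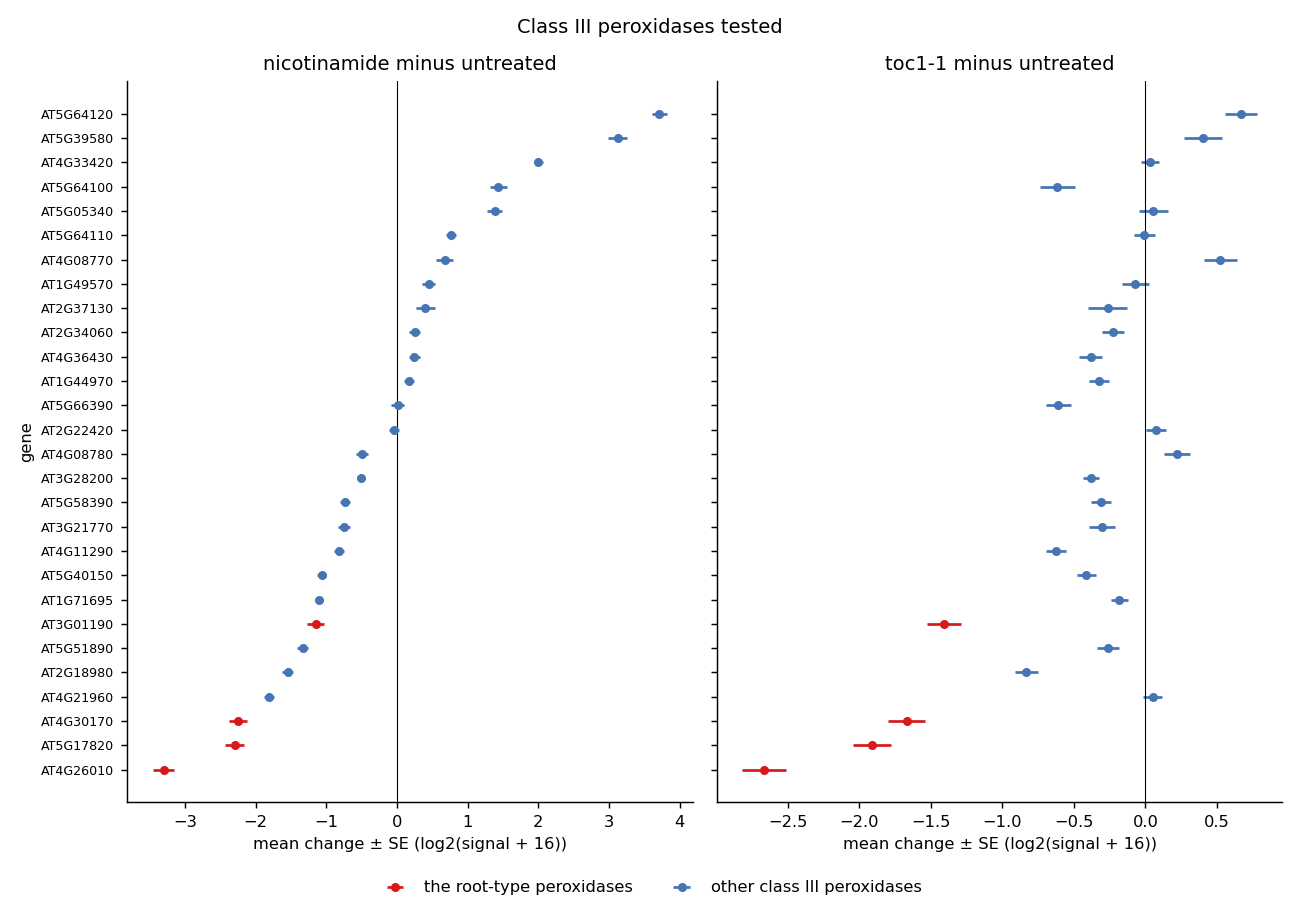
Mean change with its SE on the log2(signal + 16) scale for the 28 class III peroxidases tested, nicotinamide minus untreated on the left and toc1-1 minus untreated on the right, with genes sorted by the change under nicotinamide. The root-type genes are in red and the 24 others in blue, and the 2 panels have different axes.

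UPB1, the known repressor of root peroxidases, went opposite ways in the 2 conditions. Its signal ran from 23.5 to 355 with a median of 162 under nicotinamide, from 0.234 to 11.0 with a median of 4.48 in toc1-1, and from 0.552 to 46.7 with a median of 17.2 in untreated seedlings. It rose by 2.46 ± 0.11 (SE, log2) under nicotinamide (adjusted p = 3.87e-23, limma) and its change in toc1-1 was -0.66 ± 0.11 (adjusted p = 1.01e-05, limma). The root-type peroxidases were low in both conditions. In untreated seedlings UPB1 peaked at 10.8 h (amplitude 0.45, adjusted p = 0.00856, limma), among the peak hours of the peroxidases. Its log2 means were 7.47 under nicotinamide, 4.35 in toc1-1 and 5.01 in untreated seedlings, so nicotinamide arrays raised it over the filter. The change of UPB1 in toc1-1 and its untreated rhythm therefore rest on low signals, where the scale is compressed. Of the other listed wall oxidative enzymes, the NADPH oxidase genes AT1G19230 and AT4G25090 could be matched and were too dim to be tested. AT1G19230 averaged 4.38 signal units under nicotinamide, 9.80 in toc1-1 and 12.7 in untreated seedlings, and AT4G25090 averaged 1.14, 3.27 and 6.28 in the same order.

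Most root hair markers were low in the same conditions as these genes. Of 31 listed root hair genes 9 could be matched, and their mean signals were below the untreated ones in 7 of 9 under nicotinamide and 8 of 9 in toc1-1. These are raw means, and no share over all probe sets was computed for them. Only 3 of the 9 passed the filter, EXPA18 and EXPA7 not among them. All 3 were lower in both conditions (limma), where 48.4% of all probe sets were lower under nicotinamide and 19.6% in toc1-1. The probe sets of all 3 end in x_at, the array's mark for probes that may match related genes. Whether they are 3 separate readings was not tested. One of them, AT4G08410, had log2(signal + 16) means of 4.98 under nicotinamide, 4.89 in toc1-1 and 5.63 in untreated seedlings, so untreated arrays raised it over the filter. The summed signal of the 9 ran from 67.2 to 238 under nicotinamide, from 55.7 to 193 in toc1-1 and from 58.2 to 630 in untreated seedlings, where the second lowest array was at 167. The lowest untreated sum was on the array of 93 h in replicate 1, the one that was low for the peroxidases. The expansin EXPA18 (AT1G62980) averaged 5.62 signal units under nicotinamide, 8.16 in toc1-1 and 37.2 in untreated seedlings, and EXPA7 (AT1G12560) averaged 4.93, 5.03 and 18.1 in the same order. AT1G26250 was one of the 2 exceptions under nicotinamide, with 51.6 signal units there, 7.55 in toc1-1 and 7.96 in untreated seedlings. The part of these cells in the peroxidase signals was not tested.

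Of 31 genes listed for other root cells 1 could be matched, PYK10. It averaged 2212 ± 403 signal units under nicotinamide, 3570 ± 517 in toc1-1 and 3624 ± 743 in untreated seedlings (SD, n = 24 arrays each). Its change in toc1-1 was -0.0007 ± 0.07 (log2), where the root-type peroxidases were low, and -0.70 ± 0.07 under nicotinamide. RCA (AT2G39730), which encodes the activase of the photosynthetic enzyme Rubisco, averaged 5727 under nicotinamide, 4755 in toc1-1 and 5209 in untreated seedlings, so the photosynthetic marker was present at a high signal in all 3 conditions. Of 3 green tissue markers tested, 1 was past the threshold under nicotinamide, SPCH (AT5G53210) at -0.23 ± 0.07, and 0 in toc1-1.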

How the data were processed

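Total RNA of 72 samples was labelled with biotin and hybridised to 1-colour ATH1 arrays. The authors deposited linear intensity values. The submitters' processing notes name MAS5 and GCOS for these, without versions. The 2% trimmed mean of every deposited array was 100. Precision is limited by the number of arrays.

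Values were transformed to log2(signal + 16). Without the 64 control probe sets, the upper 60% by mean over all arrays (13647 probe sets) were fitted in limma 3.58.1 (R 4.3.3) with 36 means, 1 per condition and time, an intensity trend, and Benjamini-Hochberg adjustment over all tested at a threshold of 0.05. Contrasts were 24 h cosine and sine terms, their differences, second minus first day, and mean levels. The difference of the day change was added after seeing the data. Genes were matched through the supplied probe annotation and TAIR10.1 locus tags. The procedure was tested on simulated data. No coordinates or sequences were used.

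The genes, lists and alternatives were chosen with earlier results of these data known. Named genes were all 6 members, the 3 highest and 3 lowest other peroxidases past the threshold per contrast, the 5 most similar genes, listed markers and regulators, and GI. Other settings tried were pseudocounts of 1 and 64, quantile normalization, no filter or the upper 40%, a replicate term, time course as a random block, no trend in variance, other periods or spread, a linear trend, and omission of title-2 arrays, time courses and single arrays.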

Additional observations from a re-analysis of the deposited data

Results flagged for a closer look

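The 24 h rhythm differed between nicotinamide and untreated seedlings by a direct test of the difference (limma) for AT4G26010 (adjusted p = 0.00338), AT5G17820 (adjusted p = 0.0262) and AT4G30170 (adjusted p = 0.00306). The amplitudes were 0.02 under nicotinamide and 0.91 in untreated seedlings for AT4G26010, 0.19 and 0.80 for AT5G17820, and 0.09 and 0.87 for AT4G30170. Signals under nicotinamide lay near the lower limit of the scale, where an amplitude is compressed, and the part of this in the difference was not tested. The genes had been picked for these low signals. With a pseudocount of 1 none of the differences passed (adjusted p = 0.0582 for AT4G26010, 0.257 for AT5G17820 and 0.106 for AT4G30170, limma).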

How the results depend on the processing

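Under every alternative that gave a value, 0 members tested were rhythmic under nicotinamide and 0 changed between days in untreated seedlings. Low signals under nicotinamide limit that rhythm count. All members tested stayed lower in nicotinamide and in toc1-1 than in untreated seedlings (4 of 4, or 6 of 6 without the filter). The genes were picked for this lower level, so its count was fixed by the choice and is read for nothing. With only the upper 40% of probe sets none of the 6 genes was tested, and that setting gave no value. With a pseudocount of 1, 3 of 4 were rhythmic in untreated seedlings and 2 of 4 in toc1-1 (AT3G01190 at adjusted p = 0.0535 and AT4G30170 at 0.0649, limma, lost these calls), 0 of 4 differed in rhythm between nicotinamide and untreated seedlings, 0 of 4 changed between days in toc1-1, and the day change of AT4G26010 under nicotinamide was -0.11 in place of 0.001. With a pseudocount of 64, 1 of 4 changed between days under nicotinamide and 0 of 4 in toc1-1, 1 of 4 was rhythmic in toc1-1, and 3 of 4 differed in rhythm between toc1-1 and untreated seedlings. With no filter, 5 of 6 differed in rhythm between nicotinamide and untreated seedlings, 1 of 6 was rhythmic in toc1-1 and 0 of 6 changed between days there. With the spread of the cosine residuals 1 of 4 was rhythmic in toc1-1, and without the title-2 arrays 1 of 4 changed between days under nicotinamide. The cause of these shifts was not tested.

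With a replicate or an array left out, the count of genes changed between days ran from 0 to 3 under nicotinamide and from 0 to 1 in toc1-1. The count of rhythmic genes ran from 0 to 4 in toc1-1 and from 2 to 4 in untreated seedlings. The count that differed in rhythm from untreated seedlings ran from 0 to 4 for nicotinamide and from 0 to 2 for toc1-1. Some day changes turned sign. AT4G26010 under nicotinamide ran from -0.080 to 0.083, AT5G17820 in untreated seedlings from -0.51 to 0.033, and AT3G01190 there from -0.21 to 0.045. For AT5G17820 the -0.51 was without untreated replicate 2 and the 0.033 without untreated replicate 1.

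Same-numbered samples deviated together, at a correlation above 0.1, at 10 of 12 times for nicotinamide with untreated seedlings (range -0.04 to 0.35) and at 5 of 12 for toc1-1 with untreated seedlings (range -0.26 to 0.27). Not every time did so and the labels state no shared batch, so the number was not taken as a pairing, although replicate 1 of nicotinamide and of untreated seedlings share a light note. With the replicate number as a block, AT5G17820 became rhythmic in toc1-1 (adjusted p = 0.0373, limma), and no other call of the 4 genes changed.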
